A study of Homo sapiens with 10 samples.

Results

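The RNA of BJ fibroblasts treated with nutlin-3a for 6 h was compared with that of untreated cells, with 1 RNA-Seq library on each side. BJ cells are human fibroblasts that were immortalised by expression of telomerase reverse transcriptase and, per the study's methods, were grown in medium with 10% serum. Nutlin-3a is a small molecule that keeps the ubiquitin ligase MDM2 from binding p53. The comparison used genes with at least 5 FPKM (fragments per kilobase of transcript, scaled to the reads mapped in the library) in either library, which left 8304 of the 13279 genes in the table. Values below 1 FPKM were raised to 1 before the ratio was taken, and the log2 change is that of 6 h over control. The series holds 10 libraries, of which 5 are RNA-Seq on poly(A) RNA and 5 are Ribo-Seq, which sequences mRNA fragments protected by ribosomes. Both sets cover an untreated control and 2, 4, 6 and 19 h of nutlin-3a. The other RNA libraries and the Ribo-Seq libraries of the control and of 6 h are given here beside the comparison.

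The transcription factor p53 is kept at a low level in proliferating cells by MDM2, which binds it and marks it for degradation. Once p53 is stable it activates genes for cell cycle arrest, cell death, DNA repair and metabolism, and MDM2 itself is among them. Genes of replication and mitosis are lowered in arrested cells through CDKN1A (p21), an inhibitor of cyclin-dependent kinases that leaves the RB family proteins active. The RB-like proteins with E2F4 and the MuvB core form the DREAM complex, which represses cell cycle genes.

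With 1 library per group there was no replicate check, so no test was made and no p-value is given. A gene was counted as higher or lower, and is said to have risen or fallen or to be called, where its log2 change was at least 1 in size, which is 2-fold. Beside a change stands its counting SE, calculated from whole reads that the steps between FPKM values gave back. Where a level below 1 FPKM was raised, the SE is that of the unfloored ratio, not of the floored change. The SE covers the sampling of reads only, not the spread between cultures. The RNA libraries of the control and of 6 h held, to 3 digits, 23800000 and 27600000 reads on the listed transcripts, and the tested genes had a median of 1227.5 and 1360.5 reads in them. All 15 fibroblast markers were at 5 FPKM or more in the control, and their summed level was 10317 FPKM there and 10994 FPKM at 6 h. The epithelial and endothelial markers in the table, 4 of 10 and 4 of 8, were all below 1 FPKM in the control, and the highest of 4 immune markers, LYZ, was at 1.07 FPKM. For muscle and nerve cells 1 of 9 markers was in the table, MAP2, at 1.70 FPKM.

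CDKN1A and MDM2, the best known p53 targets, were high in the treated libraries. CDKN1A RNA was at 68.6, 212, 915, 1204 and 1316 FPKM in the libraries of the control, 2, 4, 6 and 19 h, which was a log2 change of 4.13 at 6 h (counting SE 0.034). MDM2 RNA, which encodes the ligase that nutlin-3a occupies, was at 14.9, 36.3, 203, 254 and 259 FPKM in the same order, a log2 change of 4.09 (SE 0.0289). For both genes the 6 h level was close to that of 19 h. GAPDH, a glycolytic enzyme often used as a reference, differed by 0.19 on the log2 scale, and the actin gene ACTB by -0.59.

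At 6 h, 153 genes were at least 2-fold higher and 460 at least 2-fold lower than in the control, which was 1.84% and 5.54% of the tested genes and 7.38% in either direction. Of the genes changed at least 4-fold, 32 rose and 189 fell, and at least 8-fold, 11 rose and 58 fell. At 16-fold or more there were 3 rises and 2 falls on floored values, and the largest floored change was a rise. Without the floor FAM111B changed by -5.80, FAM198B by 5.76 and GDF15 by 5.74, so the floor decides this order. The median log2 change of all tested genes was 0.0033 with an SD of 0.65 across genes, and 50.7% of genes lay within 1.2-fold of the control. Because of the filter, a gene that fell had at least 5 FPKM in the control, whereas 59 genes that rose were at 1 to 5 FPKM there and 7 below 1 FPKM, and these passed only through their 6 h level. The floor limits the ratio for those 7 genes and for 26 genes that fell to below 1 FPKM at 6 h. Of the 612 called genes with recovered reads, 500 stayed beyond 2-fold over the whole 95% counting interval, which was set around the floored change. On the same genes the other libraries gave, against the same control, 56 higher (0.674%) and 1 lower (0.012%) at 2 h. They gave 104 (1.25%) and 67 (0.807%) at 4 h, and 204 (2.46%) and 590 (7.11%) at 19 h. The median level of the 460 genes was 17.1, 16.2, 11.2, 4.44 and 2.79 FPKM in the same order of libraries, with the widest gap between 4 and 6 h, in genes that were picked by their 6 h value. No gene that rose or fell at 6 h stood 2-fold beyond every other RNA library.

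**Figure D1:**
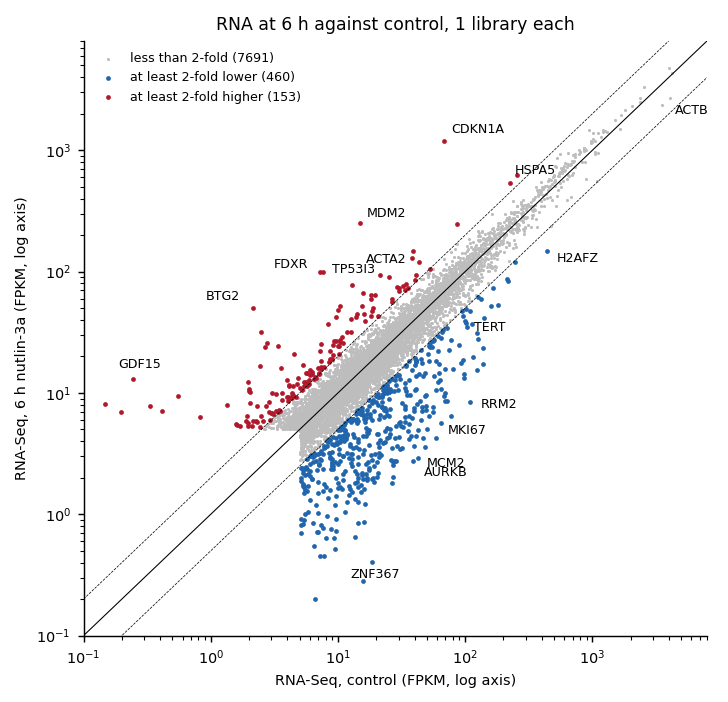
RNA level (FPKM, log axes) of the 8304 tested genes in the control library (horizontal) and the 6 h nutlin-3a library (vertical), with the 153 genes at least 2-fold higher in red, the 460 at least 2-fold lower in blue and the others in grey. The solid line marks equal levels and the dashed lines 2-fold. Blue genes at least 4-fold lower (189) outnumber red genes at least 4-fold higher (32), and CDKN1A and MDM2 stand far above the line.

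The genes of the p53 response were described in 6 lists of known or proposed p53 targets, with 101 tested members. Of these 41 rose and 2 fell (40.6% and 1.98%, beside 1.84% and 5.54% of all tested genes). The median log2 change was 0.68 against 0.0033 for all tested genes. The list of p53 feedback and stability had 5 risen genes of 10 and a median of 1.09. Beside MDM2 these were TRIM22, an interferon-inducible antiviral protein, TRIAP1, a small inhibitor of apoptosis, CCNG1, a cyclin that recruits a phosphatase to MDM2, and PPM1D, a phosphatase that turns the p53 response down. TRIM22 RNA was at 12.8 FPKM in the control and 78.2 at 6 h (log2 change 2.61, SE 0.051), and TRIAP1 was at 15.7 and 66.7 FPKM (2.09, SE 0.0753). CCNG1 rose from 38.3 to 130 FPKM (1.77, SE 0.0341). PPM1D was at 4.15, 8.32, 14.5 and 11.4 FPKM in the control, 2, 4 and 6 h libraries, so its highest level of the series was at 4 h.

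Among the arrest genes, 6 of 15 rose (median 0.73). BTG2, an antiproliferative protein that binds the deadenylase complex, had the largest rise of all tested genes on floored values. Its RNA was at 2.15, 12.6, 64.1, 50.5 and 54.4 FPKM from the control to 19 h, a log2 change of 4.56 at 6 h (SE 0.125). PLK3, a stress-activated kinase, went from 10.4 to 27.3 FPKM (1.40, SE 0.067), but had already stood at 26.6 FPKM at 2 h. FBXW7, the subunit of a ubiquitin ligase that degrades cyclin E and MYC, changed by 1.36 (SE 0.0704), NINJ1, a protein that mediates rupture of the plasma membrane, by 1.26 (SE 0.0752) and ZNF385A, a zinc finger protein that binds p53, by 1.04 (SE 0.125).

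Of the death and survival genes 8 of 18 rose (median 0.80), and all but 1 were above their control level. CYFIP2, a member of the actin-regulating WAVE complex, was at 2.49, 2.90, 10.5, 31.9 and 32.5 FPKM from the control to 19 h, a log2 change of 3.68 at 6 h (SE 0.0755). TP53INP1, a stress protein of autophagy and death, rose from 2.75 to 25.9 FPKM (3.24, SE 0.0784). BBC3 (PUMA), a BH3-only protein that starts apoptosis at the mitochondria, was at 1.95, 9.42, 18.9 and 12.2 FPKM in the control, 2, 4 and 6 h libraries (2.65, SE 0.167). PHLDA3, an inhibitor of AKT, rose from 39.1 to 147 FPKM (1.91, SE 0.0424). BBC3 and PPM1D shared a high point at 4 h, while CYFIP2 was close to its highest level at 6 and 19 h alike.

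The list of p53 DNA repair targets had 12 tested members and moved both ways. RRM2B, a ribonucleotide reductase subunit used outside S phase, rose from 9.66 to 42.3 FPKM (2.13, SE 0.0468), and DDB2, which recognises ultraviolet lesions, rose from 18.3 to 59.3 FPKM (1.69, SE 0.0572). FANCC, a Fanconi anaemia core protein, fell from 5.30 to 1.72 FPKM (-1.62, SE 0.115), a change that was -0.08 with a floor of 5 FPKM. The median of this list was 0.61.

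In the metabolism and autophagy list 9 of 19 genes rose (median 0.89). FDXR, the mitochondrial ferredoxin reductase, was at 7.27, 8.19, 35.1, 99.9 and 92.5 FPKM from the control to 19 h (log2 change at 6 h 3.78, SE 0.0805), and TP53I3, a quinone oxidoreductase, at 7.64, 7.34, 23.0, 100.0 and 112 FPKM (3.71, SE 0.0781). Both were near their control level at 2 h and far above their 4 h level at 6 h. SESN1, a sestrin that restrains mTORC1, rose from 3.38 to 24.1 FPKM (2.84, SE 0.0908), and ACER2, a Golgi ceramidase, from 0.412 to 7.13 FPKM (2.83, SE 0.315). In the list of secreted, adhesion and other targets 11 of 27 rose (median 0.66). SPATA18, a protein of mitochondrial quality control, rose from 2.67 to 23.98 FPKM (3.17, SE 0.0903), ZMAT3, an RNA-binding zinc finger protein, from 9.94 to 48.7 FPKM (2.29, SE 0.0331) and C1orf183 from 2.05 to 10.1 FPKM (2.31, SE 0.0915).

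Like BTG2, BBC3 and PPM1D, GDF15, a secreted cytokine of the TGF-beta superfamily, was highest at 4 h, with a larger drop to 6 h. Its RNA was at 0.245, 4.82, 70.7, 13.1 and 14.8 FPKM from the control to 19 h. The log2 change at 6 h was 3.71 on floored values and 5.74 without the floor. The unfloored ratio rests on 7 reads in the control and 432 at 6 h (SE 0.55). The 6 h value was therefore well below that of 4 h, in contrast to FDXR and TP53I3.

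Of the 153 genes that rose, 52 were on one of the 34 lists and 101 on none, and 6 of the 15 largest rises were below 1 FPKM in the control. KRT17, a keratin of basal epithelium, was at 0.550, 0.560, 5.16, 9.48 and 13.6 FPKM from the control to 19 h. CLCA2, a regulator of chloride currents, was at 0.333 FPKM in the control, 7.81 at 6 h and 22.4 at 19 h, its highest value over the nutlin-3a time course. FAM198B, a Golgi-resident protein, went from 0.148 to 8.04 FPKM, and WDR63, a dynein-associated protein, from 0.196 to 6.91 FPKM. The floored log2 changes of KRT17, FAM198B, CLCA2, ACER2 and WDR63 lay between 2.79 and 3.24, and with a floor of 5 FPKM they were between 0.47 and 0.92.

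In absolute level the largest gains were those of CDKN1A, EEF1A1, LGALS1, CALR and DKK1. EEF1A1, the elongation factor that brings tRNAs to the ribosome, was at 2528 FPKM in the control and 3345 at 6 h, and LGALS1, a galectin, at 4008 and 4808 FPKM. CALR, a chaperone of the endoplasmic reticulum, was at 946 and 1466 FPKM, and DKK1, a secreted inhibitor of WNT signalling, at 555 and 931 FPKM. None of these but CDKN1A reached 2-fold.

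**Figure D2:**
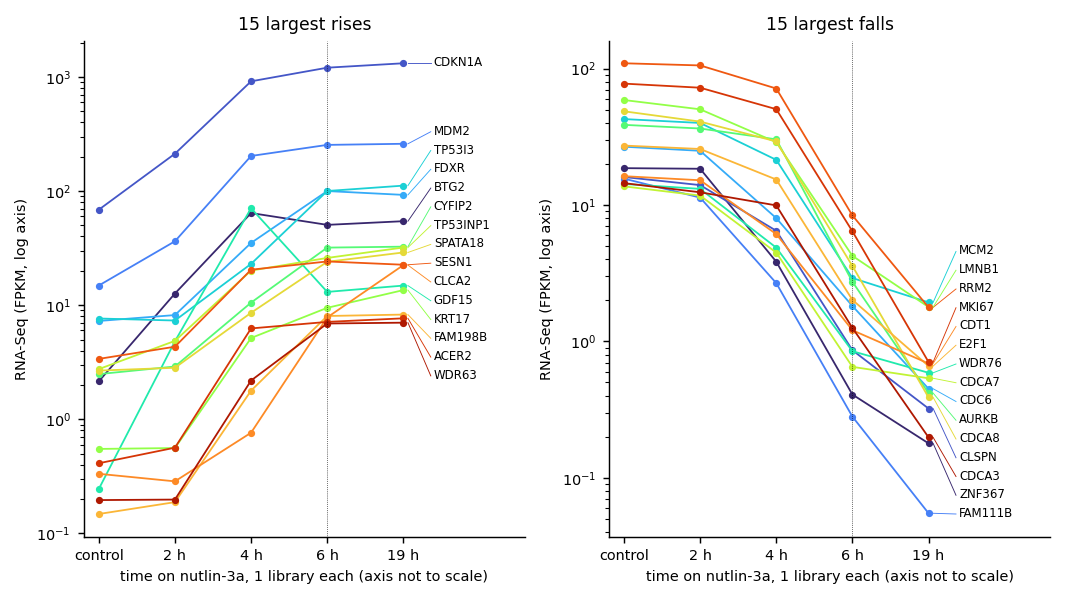
RNA level (FPKM, log axis) of the 15 genes with the largest rise (left) and the 15 with the largest fall (right) at 6 h in each of the 5 RNA-Seq libraries, from the control to 19 h, with 1 point per library and the 6 h library marked by a dotted line. GDF15 and BTG2 were highest at 4 h, CLCA2 was still climbing at 19 h, and each of the 15 falling genes was lower at 6 h than at 4 h and lower again at 19 h.

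Members of 8 cell cycle lists, of replication, G1 and S control, mitosis and recombination, were 202 of the 460 genes that fell. Cell cycle genes outside these lists were not counted. Of 256 tested members 202 fell (78.9%, beside 5.54% of all tested genes) and none rose (beside 1.84%), with a median log2 change of -2.35. At least 4-fold falls were found in 146 of these members. On the same lists 33 members were at least 2-fold lower at 4 h and 221 at 19 h, with medians of -0.51 and -3.18. In bulk RNA, fewer cycling cells and less RNA of these genes in each cell cannot be told apart.

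Licensing of replication origins, in which the MCM2 to MCM7 helicase is loaded in G1, was the list with the deepest median, -2.68, and 23 of its 27 members fell. CDC6 and CDT1 load the helicase. CDC6 RNA was at 26.7, 24.96, 8.01, 1.82 and 0.450 FPKM from the control to 19 h (log2 change at 6 h -3.88, SE 0.121). CDT1 was at 16.3, 15.2, 6.12, 1.21 and 0.689 FPKM (-3.75, SE 0.159). MCM2, a helicase subunit, was at 42.6, 39.9, 21.4, 2.92 and 1.93 FPKM (-3.87, SE 0.0929), and CLSPN, the claspin adaptor of the replication checkpoint, at 16.03, 13.99, 6.47, 0.862 and 0.322 FPKM (-4.00, SE 0.149). All 6 helicase subunits fell, from -2.35 for MCM5 to the -3.87 of MCM2. The 4 members that did not fall were ORC2, ORC3, ORC4 and ORC5, core subunits of the origin recognition complex, whose log2 changes lay between -0.40 for ORC5 and 0.18 for ORC4, while ORC1 (-3.15) and ORC6 (-2.68) fell with the rest. The ORC genes and MCM5 were named after their values were seen.

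At the replication fork 24 of 34 genes fell (median -1.84). RRM2, the S phase subunit of ribonucleotide reductase, was at 109, 105, 71.4, 8.38 and 1.78 FPKM from the control to 19 h (log2 change at 6 h -3.71, SE 0.0517), in contrast to its p53-induced counterpart RRM2B above. ASF1B, a histone chaperone, fell from 28.4 to 2.75 FPKM (-3.37, SE 0.122), PRIM1, the primase subunit, from 11.7 to 1.26 FPKM (-3.22, SE 0.214) and CHAF1B, of the chromatin assembly factor, from 17.1 to 1.98 FPKM (-3.11, SE 0.137). PCNA, the sliding clamp and itself a p53 target, was at 135 FPKM in the control, 154 at 4 h and 128 at 6 h, a change of -0.09; it was named after its value was seen. In the list of G1 and S control 14 of 29 fell (median -0.75). E2F1, the activator of S phase genes, was at 27.3, 25.7, 15.4, 2.02 and 0.660 FPKM (-3.76, SE 0.127), DTL, which targets CDT1 for degradation, fell by 3.31 (SE 0.11), FBXO5, an inhibitor of the anaphase-promoting complex, by 3.23 (SE 0.122) and the phosphatase gene CDC25A by 2.93 (SE 0.17).

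The lists of mitosis fell almost whole. Of 33 genes of mitotic entry 32 fell (median -2.67), of 39 genes of the kinetochore and centromere 35 (median -2.34), of 36 genes of spindle and cytokinesis 31 (median -2.54) and of 28 genes of mitotic chromosomes and the nuclear envelope 24 (median -1.94). AURKB, the kinase of the chromosomal passenger complex, was at 38.7, 36.4, 30.3, 2.73 and 0.418 FPKM from the control to 19 h (log2 change at 6 h -3.82, SE 0.152). CDCA8 (borealin), of the same complex, was at 48.6, 40.9, 29.2, 3.57 and 0.389 FPKM (-3.77, SE 0.0964). Both genes still held most of their control level at 4 h, whereas CDC6 was already down to 8.01 of 26.7 FPKM. MYBL2, a transcription factor that works with MuvB, fell from 46.8 to 4.24 FPKM (-3.47, SE 0.0864), ESPL1 (separase), which cuts cohesin, from 11.4 to 1.04 FPKM (-3.47, SE 0.11) and CDCA3 from 14.5 to 1.25 FPKM (-3.53, SE 0.185).

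On the kinetochore list HJURP, the chaperone of centromeric histone CENPA, was at -3.44 (SE 0.0863), SKA1, which couples kinetochores to microtubules, at -3.34 (SE 0.147) and NUF2, of the microtubule-binding NDC80 complex, at -3.33 (SE 0.125). Among spindle genes the motors KIFC1 and KIF15 were at -3.31 (SE 0.0787) and -3.28 (SE 0.138), TROAP at -3.15 (SE 0.127) and TACC3, a spindle microtubule protein, at -3.04 (SE 0.0603). MKI67, the proliferation marker Ki-67, was at 77.6, 72.4, 50.4, 6.41 and 0.706 FPKM (-3.60, SE 0.0319). LMNB1, a nuclear lamin, was at 58.8, 50.3, 28.8, 4.24 and 1.79 FPKM (-3.79, SE 0.0819), and the chromatin protein gene CDCA7 fell from 13.7 FPKM to 0.651 (-3.78, SE 0.21). CDCA5 (sororin), which protects cohesin, fell by 3.38 (SE 0.213). Of 30 genes of homologous recombination and the checkpoint 19 fell (median -1.74), with EXO1 at -3.26 (SE 0.18), RAD54L at -3.21 (SE 0.202), RAD51AP1 at -3.12 (SE 0.151) and FANCA at -3.09 (SE 0.105). With a floor of 5 FPKM the changes of CDC25A, KIF15, EXO1 and RAD54L were -0.61, -0.95, -0.94 and -0.89, short of 2-fold.

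**Figure D3:**
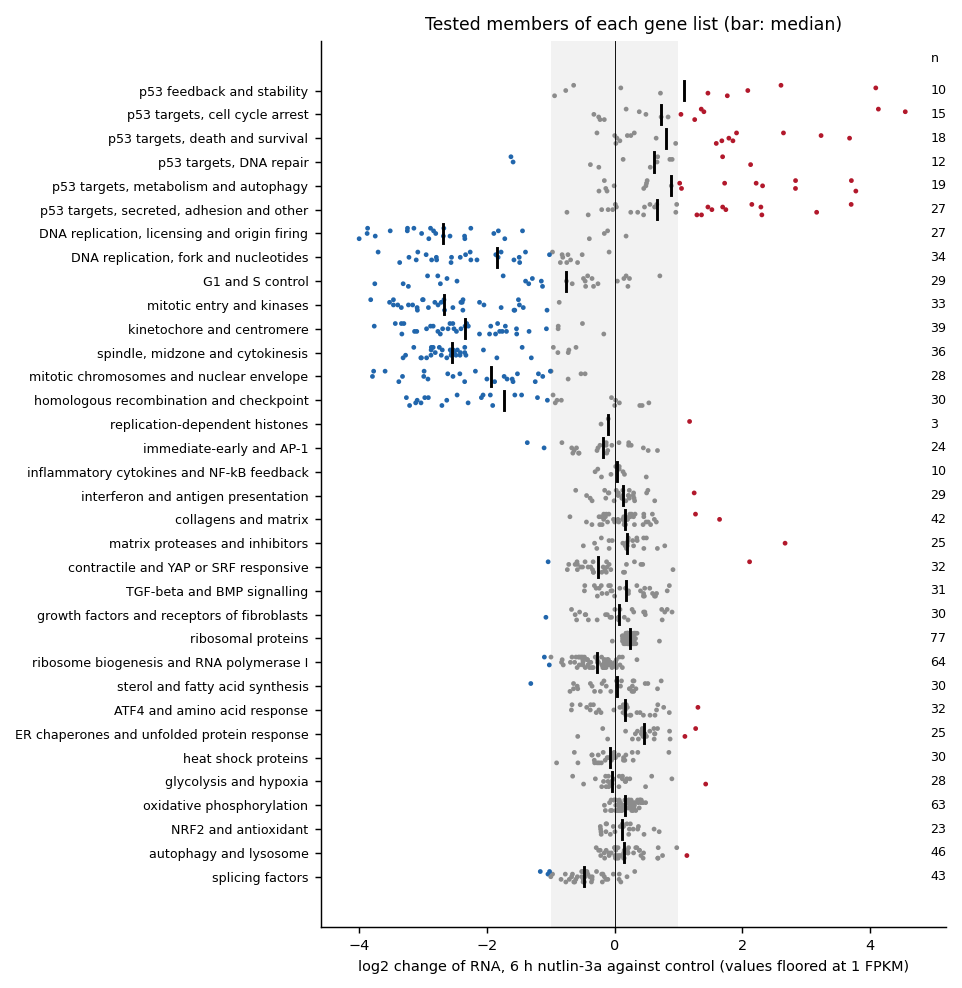
Log2 change of RNA at 6 h against the control for each tested member of the 34 gene lists, with the median of a list as a black bar, members at least 2-fold higher in red, at least 2-fold lower in blue, others in grey, the band of less than 2-fold shaded and the number of tested members at the right. Red points gather on the 6 p53 target lists and blue points on the 8 cell cycle lists, and the other lists lie mostly inside the band.

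The largest fall on floored values was that of ZNF367, a zinc finger transcription factor gene on none of the lists. Its RNA was at 18.6, 18.4, 3.84, 0.408 and 0.179 FPKM from the control to 19 h, and the floored log2 change at 6 h was -4.22 with 1619 reads in the control and 41 at 6 h. FAM111B, a serine protease gene, was at 15.6, 11.3, 2.67, 0.281 and 0.055 FPKM (-3.96), and WDR76 was at 14.3, 13.1, 4.87, 0.848 and 0.589 FPKM (-3.83). Without the floor the 3 log2 changes at 6 h were -5.51, -5.80 and -4.07 in this order. These 3 genes were already more than 2-fold lower at 4 h. Of the 460 genes that fell, 214 were on a list and 246 on none, and the latter had a median log2 change of -1.34, with 43 at least 4-fold lower. In absolute level the largest losses were ACTB, ACTG1, TUBB, IGFBP5 and H2AFZ. H2AFZ, a histone variant, fell from 443 to 147 FPKM (-1.59, SE 0.027). The cytoskeletal genes stayed short of 2-fold, with 4061 and 2700 FPKM for ACTB, 3507 and 2341 for ACTG1 and 1089 and 560 for TUBB, as did IGFBP5, a secreted binding protein of insulin-like growth factors, with 888 and 579 FPKM.

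Promoter windows from RefSeq (GRCh38.p14), which run from 250 bases before to 50 after a gene's start, were searched on both strands for short motifs. Where a gene had several windows the first listed was used, and 6852 of the 8304 tested genes matched by symbol. The CHR (cell cycle genes homology region, TTTGAA) is bound by MuvB complexes, the CCAAT box (CCAAT) by NF-Y, and the E2F motif (TTCCCGC or TTGGCGC) by E2F factors. The windows below are those of 4 falling mitotic or chromosome genes of the named set that hold a CHR and a CCAAT box and, for contrast, those of the most reduced replication genes with an E2F motif, CLSPN and CDC6. Each runs 5′ to 3′ along the gene's strand from 130 bases before to 30 after the start, with every match in capitals and the matches on the opposite strand printed as they read here.
CDCA8: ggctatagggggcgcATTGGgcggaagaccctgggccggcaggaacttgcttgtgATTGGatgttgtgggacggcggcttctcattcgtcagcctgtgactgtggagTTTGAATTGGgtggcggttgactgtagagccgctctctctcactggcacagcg
MKI67: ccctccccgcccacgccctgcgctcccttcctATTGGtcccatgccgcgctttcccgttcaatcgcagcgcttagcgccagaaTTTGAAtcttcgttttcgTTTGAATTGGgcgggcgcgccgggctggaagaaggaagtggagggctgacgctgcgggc
CDCA3: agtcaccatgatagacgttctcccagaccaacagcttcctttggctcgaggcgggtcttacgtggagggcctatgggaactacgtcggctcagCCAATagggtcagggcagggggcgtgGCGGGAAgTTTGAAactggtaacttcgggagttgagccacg
ESPL1: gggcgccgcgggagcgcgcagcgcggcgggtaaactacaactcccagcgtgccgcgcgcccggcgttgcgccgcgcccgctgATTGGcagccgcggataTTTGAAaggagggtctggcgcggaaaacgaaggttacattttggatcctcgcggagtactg
CLSPN: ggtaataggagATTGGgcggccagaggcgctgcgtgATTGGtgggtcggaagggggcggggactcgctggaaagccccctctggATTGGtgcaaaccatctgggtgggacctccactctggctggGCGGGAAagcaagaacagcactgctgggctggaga
CDC6: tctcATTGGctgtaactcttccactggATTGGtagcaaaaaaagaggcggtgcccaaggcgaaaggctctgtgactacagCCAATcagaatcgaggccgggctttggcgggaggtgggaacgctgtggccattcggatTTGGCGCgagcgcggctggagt

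They lie at chr1:37692386-37692545, plus strand (CDCA8), chr10:128126394-128126553, minus strand (MKI67), chr12:6851257-6851416, minus strand (CDCA3), chr12:53268169-53268328, plus strand (ESPL1), chr1:35769949-35770108, minus strand (CLSPN) and chr17:40287749-40287908, plus strand (CDC6), all in GRCh38.p14 coordinates. In CDCA8 the CHR began 23 bases before the start and shared its last base with the opposite-strand CCAAT box that began 18 bases before it. MKI67 held a pair of CHR matches, at 47 and 29 bases before the start, and the second shared a base with a CCAAT box in the same way. In ESPL1 the CHR lay 31 bases and the CCAAT box 48 bases before the start, and in CDCA3 they lay 3 and 37 bases before it, next to an E2F motif at 11 bases. The E2F motif of CLSPN began 5 bases before the start and that of CDC6 8 bases after it, and each of these windows held 3 CCAAT boxes and no CHR.

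The CHR was in 26.2% of the windows of the genes that fell (99 of 378) and in 38.4% of those that fell at least 4-fold (61 of 159), beside 9.41% of all tested genes and 15.4% of all 27305 RefSeq windows. Genes that rose had it in 7.20% (9 of 125) and genes within 1.2-fold in 7.96% (278 of 3492). The E2F motif was in 30.7% of windows of genes that fell and 15.9% of all tested genes, and the CCAAT box in 51.3% and 37.1%. The lists divided by motif. On the 3 lists of mitotic entry, kinetochore and spindle 57.8% of windows held a CHR (52 of 90) and 18.9% an E2F motif, while on both replication lists 5.66% held a CHR (3 of 53) and 56.6% an E2F motif (30 of 53). A CHR and a CCAAT box stood together in 44.4% of the mitotic windows, 3.77% of the replication windows and 4.10% of all tested genes. The TATA box (TATAAA) was in 8.00% of genes that rose, 4.23% of those that fell and 4.77% of all tested genes. A strict p53 motif, a pair of CATG cores 6 bases apart, was in 1 of 125 risen genes, TRIAP1, and in 9 of all 6852. These are matches of letters, not measured binding.

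**Figure D4:**
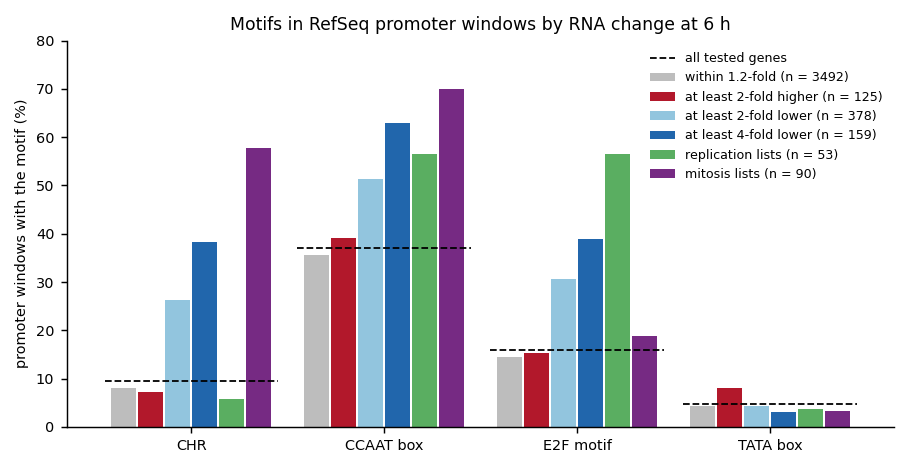
Share of RefSeq promoter windows (%) that hold each motif, for genes grouped by their RNA change at 6 h and for the lists of replication and of mitosis, with the number of windows per group in the legend and the share of all tested genes as a dashed line. The CHR bar is highest for the mitosis lists (57.8%) and the E2F bar for the replication lists (56.6%), and the bars of genes that rose lie near the dashed line for the CHR, the CCAAT box and the E2F motif.

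The 20 other lists held 11 higher and 10 lower genes among 687 tested members, with a median of 0.09. The share that rose was 1.601%, near the 1.84% of all tested genes. The share that fell was 1.456%, below the 5.54% of all tested genes. On no list were 101 of the genes that rose and 246 of those that fell. Genes of the endoplasmic reticulum stood out in level. Of 25 chaperones and genes of the unfolded protein response 22 were above their control value and the median was 0.47. HSPA5 (BiP), the main chaperone of that compartment, was at 224, 229, 241, 540 and 284 FPKM from the control to 19 h, a log2 change of 1.27 at 6 h (SE 0.0116). HYOU1, its nucleotide exchange factor, was at 51.3, 51.6, 50.9, 93.7 and 50.3 FPKM (0.87, SE 0.0235), and SDF2L1 at 28.3, 26.9, 29.3, 51.4 and 29.6 FPKM (0.86, SE 0.0726). These 3 genes were clearly highest at 6 h, and 18 of the 25 had their highest RNA level of the series there, as did 29.5% of all tested genes. DNAJB9, a cochaperone, rose from 5.92 to 12.7 FPKM (1.10, SE 0.0873). In Ribo-Seq HSPA5 went from 193 FPKM in the control to 589 at 6 h and HYOU1 from 39.2 to 112.

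The immediate-early genes were mostly at or below their control level at 6 h (median -0.18, and 0.82 at 2 h). Of 24 tested, 2 fell (8.33%, beside 5.54% of all tested genes). FOSL1, a FOS family partner in AP-1, was at 217, 382, 261, 84.1 and 117 FPKM from the control to 19 h (log2 change at 6 h -1.37, SE 0.0279). JUNB was at 22.9, 151, 32.0, 36.4 and 40.3 FPKM, so its high value was that of 2 h. KLF6 was at 37.3 and 21.1 FPKM in the control and at 6 h, a change of -0.83. None of the 10 genes of inflammation and NF-kB feedback was called, beside 7.38% of all tested genes in either direction. NFKBIA, the inhibitor of NF-kB, was at 19.8, 67.9, 29.5, 27.9 and 29.9 FPKM. TAP1, the peptide transporter of antigen presentation, rose from 18.2 to 43.1 FPKM (1.25, SE 0.0471). No other of the 29 interferon genes was called, a risen share of 3.45% beside 1.84% of all tested genes. STAT2, ISG15 and OAS3 changed by 0.63, 0.52 and -0.61.

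In the matrix, 2 of 42 genes rose (4.76%, beside 1.84% of all tested genes), and the median was 0.16. COL7A1, the collagen of anchoring fibrils, was at 30.3, 26.6, 46.6, 73.0 and 109 FPKM from the control to 19 h (log2 change at 6 h 1.27, SE 0.0205), and VCAN, the proteoglycan versican, went from 1.69 to 5.30 FPKM (1.65, SE 0.0722). PAPPA, a protease of insulin-like growth factor binding proteins, rose from 0.830 to 6.37 FPKM (2.67, SE 0.103). No other of 25 proteases and inhibitors rose, which made 4% beside 1.84% of all tested genes. With a floor of 5 FPKM the changes of VCAN and PAPPA were 0.08 and 0.35. MMP14, a membrane-bound collagenase, was at 108 and 186 FPKM (0.79). Among 32 contractile genes the median was -0.27. ACTA2, smooth muscle actin, rose from 21.5 to 93.3 FPKM (2.12, SE 0.0526), and ZYX, the focal adhesion protein zyxin, fell from 247 to 120 FPKM (-1.04, SE 0.0199). GAS1, a growth arrest protein of the cell surface, fell from 8.34 to 3.96 FPKM (-1.08, SE 0.102). No other growth factor or receptor gene of 30 fell, which made 3.33% beside 5.54% of all tested genes. GAS1 had been lower still at 4 h, at 2.01 FPKM. None of 31 TGF-beta and BMP genes reached 2-fold, beside 7.38% of all tested genes in either direction. The BMP-responsive ID2, ID3 and ID4 changed by 0.82, 0.66 and 0.64.

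Genes of the translation apparatus divided. None of 77 ribosomal protein genes was called (beside 7.38% of all tested genes), but 76 of the 77 were above the control, with a median of 0.23. RPS19 changed most among them, from 529 to 861 FPKM (0.70, SE 0.0173). Their transcripts are short, with a median of 907 bases, and the log2 change of all tested genes had a slope of -0.03 per doubling of length. Whether transcript length bears on the change of the ribosomal protein genes was not tested. In Ribo-Seq the same 77 genes had a median of -0.76. Of 64 genes of ribosome biogenesis 53 were below the control (median -0.27) and 2 fell, POLR1E, a subunit of RNA polymerase I, by 1.10 (SE 0.0925) and NOLC1, a nucleolar chaperone, by 1.02 (SE 0.0423). NOP56, a core protein of box C/D particles, was at 64.6 and 32.4 FPKM, just inside 2-fold. Of 43 splicing factors 38 were below the control (median -0.47), and SF3A2, SRSF2 and HNRNPAB fell by 1.16 (SE 0.0615), 1.04 (SE 0.0287) and 1.02 (SE 0.0326). The share that fell was 3.125% of ribosome biogenesis genes and 6.98% of splicing factors, beside 5.54% of all tested genes.

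Each of the stress and metabolic lists below held at most 1 called gene, beside 1.84% risen and 5.54% fallen of all tested genes. The share that rose was 3.125% of the ATF4 list, 3.57% of glycolysis and hypoxia and 2.17% of autophagy and lysosome. The share that fell was 3.33% of the sterol and fatty acid list. Each of these shares rests on 1 gene. NUPR1, a small chromatin protein induced by stress, rose from 7.403 to 18.3 FPKM (1.31, SE 0.132) and was the only one of 32 genes of the ATF4 response to rise. ASNS, asparagine synthetase, was at 14.04, 38.5 and 25.4 FPKM in the control, at 4 h and at 6 h. PFKFB4, which makes the activator of phosphofructokinase, rose from 2.16 to 5.82 FPKM (1.43, SE 0.122, but 0.22 with a floor of 5 FPKM), and ATG4A, a protease of the autophagy protein ATG8 family, from 5.02 to 11.01 FPKM (1.13, SE 0.102). SREBF1, the transcription factor of lipid synthesis, fell from 25.4 to 10.2 FPKM (-1.31, SE 0.0505), and no other of 30 sterol and fatty acid genes was called. None of 63 genes of oxidative phosphorylation (median 0.16), 30 heat shock genes (median -0.07) or 23 genes of the antioxidant NRF2 response (median 0.12) was called. Of 3 replication-dependent histone genes with enough poly(A) RNA, HIST1H2AC rose from 4.39 to 9.91 FPKM (1.18, SE 0.131), and HIST1H2BK and HIST1H1C changed by -0.21 and -0.10. In Ribo-Seq all 3 were lower at 6 h, with 635 and 188 FPKM for HIST1H2AC.

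The Ribo-Seq libraries were made apart from those of RNA and give the same genes in another readout. Of the 153 genes that rose in RNA 114 had at least 5 FPKM in Ribo-Seq, and 94 of these (82.5%) were at least 2-fold higher there, beside 5.22% of the 6703 tested genes with such a Ribo-Seq level. Of the 460 that fell 356 had such a level and 291 (81.7%) were at least 2-fold lower, beside 8.12%. CDKN1A went from 164 to 3708 FPKM in Ribo-Seq, BTG2 from 1.32 to 41.8, MDM2 from 5.45 to 65.8, AURKB from 73.4 to 3.39, CDC6 from 17.6 to 0.355 and ZNF367 from 16.9 to 0.899. GDF15 went from 1.63 to 48.8 FPKM, a log2 change of 4.91. Its RNA change of 3.71 is limited by the floor, and was 5.74 without it on the 7 control reads. COL7A1 differed more in Ribo-Seq, from 5.97 to 74.2 FPKM (3.63), than in RNA (1.27). The 41 matrix genes with such a Ribo-Seq level had a median of 1.29 there, beside -0.02 for all 6703 tested genes with that level. The median for the RNA of the list was 0.16. With 1 library per group and assay, this gap was not tested.

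**Figure D5:**
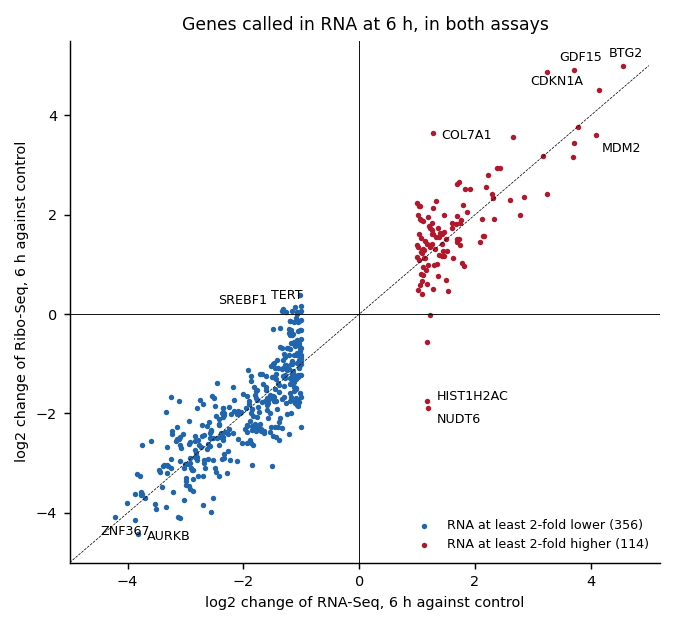
Log2 change at 6 h against the control in RNA-Seq (horizontal) and Ribo-Seq (vertical) for the genes at least 2-fold lower (blue, 356) or higher (red, 114) in RNA with at least 5 FPKM in Ribo-Seq, with 1 library per group and assay and equal change on the dashed line. Most points lie near the dashed line, a column of blue points between -1 and -1.5 in RNA reaches 0 in Ribo-Seq with TERT and SREBF1, and HIST1H2AC and NUDT6 lie in the opposite quadrant.

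In 15 genes the assays had opposite signs, 4 that rose and 11 that fell in RNA. Past 2-fold the other way in Ribo-Seq were 2 of those that rose, HIST1H2AC and NUDT6, and 0 of those that fell. In Ribo-Seq the 11 genes lay close to the control, with log2 changes between 0.01 (OLFML2B) and 0.38 (ATXN2L). TERT, the telomerase gene that these cells carry as a transgene, was at 100.2, 99.2, 105, 39.5 and 68.8 FPKM of RNA from the control to 19 h, a log2 change of -1.34 at 6 h (SE 0.0263), and at 46.1 and 47.8 FPKM in Ribo-Seq. SREBF1 was at 18.5 and 19.8 FPKM in Ribo-Seq. ZYX and FOSL1, which had fallen in RNA, changed less in Ribo-Seq with the same sign, at 263 and 241 FPKM and at 254 and 209 FPKM. NUDT6 rose from 30.3 to 69.0 FPKM in RNA (1.18, SE 0.0583) and went from 6.33 to 1.70 FPKM in Ribo-Seq. It overlaps FGF2 on the opposite strand, and whether reads were counted by strand is not given in the sources used here, so its RNA value is uncertain.

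The study's methods describe an effect of the sequencing run and state that a condition was set against a control from its own run. The labels name no run for the libraries. The median log2 change fell from 0.07 in the fifth of genes with the lowest GC share in the promoter window to -0.09 in the fifth with the highest, and in Ribo-Seq it went from -0.15 to 0.06. With the trend removed from the RNA changes, 128 genes were higher and 378 lower among the 6852 with a window, beside 125 and 378 before.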

How the data were processed

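The authors used Bowtie, as the study's methods state, to align reads to protein-coding transcripts of Ensembl release 65, a single isoform per gene, kept unique hits and deposited FPKM values with 3 decimals (per the labels, build hg19; Bowtie's version is not given in the sources used here). Reads shared by paralogs were therefore lost. Of the pair of tables, one carries the name of Ribo-Seq alone, and the other, whose name gives both assays, was read as RNA-Seq because it has only 5 value columns. The deposited FPKM were compared as ratios of values floored at 1 FPKM, for genes of at least 5 FPKM in either library, with 2-fold as the threshold, in Python 3.11.15 with numpy 2.4.6 and pandas 2.3.3. Whole reads, transcript lengths and library totals were worked out from the steps between values for 97.9% of transcripts, a step tested on simulated data. For 9198 transcripts a length was found from each assay on its own, and 87.4% of these had the same length in both. Where a length is wrong, the reads and the SE are wrong too. The RNA libraries held 23800000 to 27600000 reads and the Ribo-Seq libraries 7740000 to 14500000. Counting SEs cover counting error only.

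Named genes are the 15 largest rises and falls, the 5 largest gains and losses in FPKM, the 4 largest changes of each list with all called members of lists that had up to 6, and CDKN1A, MDM2, TERT, GAPDH and ACTB. Some genes that this rule names are not reported here. The gene lists, the named genes and the motifs were chosen with earlier results of these data known. Symbols are those of the table. Alternatives were another floor, offset, filter, fold and baseline, a centring on well-expressed genes, trends over transcript length and promoter GC, and the counting interval.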

Additional observations from a re-analysis of the deposited data

Results flagged for a closer look

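NR4A1, an immediate-early nuclear receptor gene, was past 2-fold in opposite directions at 2 times. Its RNA was at 5.14, 23.4, 5.16, 2.39 and 3.87 FPKM from the control to 19 h, which was a log2 change of 2.19 at 2 h and -1.10 at 6 h (counting SE 0.118) against the same control library. With 1 library at each time, this difference was not tested. With log2(FPKM + 1) the value at 6 h was -0.86 and with a floor of 5 FPKM it was -0.04, both short of 2-fold. In Ribo-Seq it was at 0.920 FPKM in the control and 1.19 at 6 h.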

How the results depend on the processing

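The counts of 153 higher and 460 lower genes stayed within 1.5 times under another offset or floor, no filter, centring, the 2 h library as baseline, a length or promoter GC trend removed and the counting interval. They ranged from 107 to 214 and from 347 to 573 over these settings. A minimum of 20 FPKM, which tests 3837 genes, gave 65 and 206. Of the cell cycle list genes 118 of 144 tested fell with it, beside 202 of 256 in the main setting. A 1.5-fold threshold gave 519 and 983, and a 3-fold threshold 54 and 260. The p53 target count of 41 ranged from 28 to 55. The share of called genes past 2-fold in Ribo-Seq was 46.1% (higher) and 50.3% (lower) at the 1.5-fold threshold, since weaker RNA changes enter. Of 89 named genes past 2-fold none changed direction, and 25 went below 2-fold in some setting, most with a floor of 5 FPKM. With that floor they were KRT17, FAM198B, CLCA2, ACER2, WDR63, ZNF385A, FANCC, CDC25A, KIF15, EXO1, RAD54L, HIST1H2AC, NR4A1, VCAN, PAPPA, GAS1 and PFKFB4. With log2(FPKM + 1) they were ZNF385A, NR4A1, GAS1, POLR1E, NOLC1, DNAJB9 and ATG4A. Against the 2 h library BBC3, PLK3, PPM1D and PHLDA3 were at 0.37, 0.04, 0.46 and 0.96. ZNF385A, DNAJB9 and GAS1 were at 0.87, 0.78 and -0.49 in that setting. Removing the promoter GC trend was chosen after seeing the data, and among the 6852 genes with a window it gave 128 and 378 beside 125 and 378 without it. No paired analysis was possible because each group is 1 library.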
